A study of Mus musculus with 33 samples.

Results

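Triglyceride storage and breakdown was followed through 10 genes in 33 bulk RNA-seq libraries of sorted mouse bone marrow cells. They were 5 lipases (Lipg, Lpl, Lipa, Lipe and Pnpla2), the 2 acyltransferases that close triglyceride synthesis (Dgat1 and Dgat2), 2 lipid droplet proteins (Plin2 and Hilpda) and Degs2, an enzyme of sphingolipid synthesis. The 10 genes were taken by symbol from the 54752 features of the deposited count table, and the list was chosen by their CPM (counts scaled to a library total of 1000000) across all 11 groups, with those levels already known. The differences of the 10 genes between groups are therefore given as descriptions, and where genes are said to pass a threshold of the fit across all genes, this too describes values that the choice had used. All 10 were among the 18198 genes that had enough counts for the fit across all genes.

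The study sorted stages of the neutrophil and monocyte paths from bone marrow, with 3 libraries in each of 11 groups. The control groups on the neutrophil path were Ly6C- GMP (granulocyte-monocyte progenitors lacking the surface protein Ly6C, called GMP here), the neutrophil progenitors proNeu1 and proNeu2, and the dividing precursor preNeu. The control groups on the monocyte path were cMoP (the committed monocyte progenitor), TpMo and Ly6ChiMo (monocytes with high Ly6C). GMP, proNeu1, proNeu2 and preNeu were also sorted from mice killed 3 days after mid-grade CLP, a ligation and puncture of the cecum that causes sepsis from gut bacteria. The series describes the controls as WT, and the labels name no sham operation, strain, sex, age or pooling of animals. The design text calls the 3 libraries of a group biological replicates.

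Library totals ran from 5517734 to 39977745 counts. Of the 33 libraries, 5 had at most 6781973 counts and the others at least 17237611, the 5 being 1 each of control proNeu1, preNeu and Ly6ChiMo and of septic proNeu1 and preNeu. Xist was at 153 CPM or more in all 24 GMP and neutrophil path libraries and at 1.40 CPM or less in the 9 monocyte path libraries, while Ddx3y showed the reverse, so a comparison of cMoP with GMP also compared female with male cells. Septic and control libraries did not differ in this respect. The summed level of 9 neutrophil path markers was lower in septic than in control libraries of all 4 populations without overlap, for example 31560 to 35530 against 80580 to 84630 CPM in proNeu1 and 40640 to 47130 against 78110 to 94510 CPM in preNeu. The same held for 7 B lineage markers, at 104 to 319 against 3627 to 6661 CPM in septic and control proNeu1, and for 10 macrophage markers, at 402 to 455 against 1020 to 1161 CPM in proNeu2. It also held for 4 GMP markers (Cd34, Kit, Flt3 and Gata2), at 25.6 to 28.3 against 166 to 256 CPM in preNeu. Single markers could differ from their sum. The neutrophil path marker Elane averaged 4924 CPM in septic and 3569 CPM in control preNeu, with overlap. The sum of 7 monocyte path markers was higher in septic than in control GMP, at 1022 to 1645 against 682 to 905 CPM. It was also higher in septic preNeu, at 1772 to 2363 against 578 to 1481 CPM, and overlapped in proNeu1 and proNeu2. Basophil and mast cell markers summed to between 8250 and 12220 CPM in control GMP and to between 284 and 966 CPM in septic GMP, and eosinophil markers to between 4884 and 9043 CPM and between 2550 and 4649 CPM. The basophil and mast cell sum was also lower without overlap in septic proNeu1, proNeu2 and preNeu, for example 18.8 to 20.6 against 65.3 to 133 CPM in proNeu1. The part of these shifts in the differences below was not tested. The 5 adipocyte markers summed to at most 1.13 CPM in any library, with Lep, Cidec and Adrb3 at 0 throughout. The 7 endothelial markers summed to at most 12.8 CPM, reached in control GMP, and to at most 5.01 CPM in septic libraries.

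Cells store surplus fatty acids as triglyceride in lipid droplets. DGAT enzymes add the last acyl chain to diacylglycerol, perilipins coat the droplet, and the neutral lipases ATGL (Pnpla2) and HSL (Lipe) release the fatty acids again. Lipoprotein lipase (Lpl) and endothelial lipase (Lipg) are secreted and cleave lipids of circulating lipoproteins, the first chiefly triglyceride and the second chiefly phospholipid of HDL, while lysosomal acid lipase (Lipa) digests lipids taken up by the cell. Maturing neutrophils draw on fatty acids for respiration, and monocytes and macrophages take up lipoproteins and can fill with droplets.

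RefSeq promoter windows, from 250 bases before to 50 bases after the start of transcription, were found for 6 of the 10 genes (Plin2, Hilpda, Lipe, Pnpla2, Degs2 and Lipa; GRCm38.p6). Of these, 3 are printed, 5′ to 3′ on the gene's strand. Degs2 is shown because its level was higher in septic libraries, and Plin2 and Hilpda because both are droplet genes known to respond to low oxygen and had different patterns here. Capitals mark ACGTG, the core that hypoxia-inducible factors bind, and the E-box CACGTG that contains it.
Degs2, chr12:108702257-108702556, minus strand: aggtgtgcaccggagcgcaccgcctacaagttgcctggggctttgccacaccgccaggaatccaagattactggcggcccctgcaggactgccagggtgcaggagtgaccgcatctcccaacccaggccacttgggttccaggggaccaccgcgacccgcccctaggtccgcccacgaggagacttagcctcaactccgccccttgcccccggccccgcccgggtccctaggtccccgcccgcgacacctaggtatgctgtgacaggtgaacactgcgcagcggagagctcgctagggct
Plin2, chr4:86670010-86670309, minus strand: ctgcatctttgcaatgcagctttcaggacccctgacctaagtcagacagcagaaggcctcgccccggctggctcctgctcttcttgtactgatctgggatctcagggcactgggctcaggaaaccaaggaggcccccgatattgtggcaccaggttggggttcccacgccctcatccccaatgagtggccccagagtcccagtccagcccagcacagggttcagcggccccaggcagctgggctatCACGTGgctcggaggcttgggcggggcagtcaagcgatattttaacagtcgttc
Hilpda, chr6:29272376-29272675, plus strand: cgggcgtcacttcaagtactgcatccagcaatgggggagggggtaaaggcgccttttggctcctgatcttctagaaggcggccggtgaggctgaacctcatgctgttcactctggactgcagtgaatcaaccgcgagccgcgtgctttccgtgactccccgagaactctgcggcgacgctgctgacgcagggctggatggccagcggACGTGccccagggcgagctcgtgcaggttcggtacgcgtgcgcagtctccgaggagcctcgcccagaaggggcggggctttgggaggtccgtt
On either strand, ACGTG was found in 19.6% and CACGTG, which holds ACGTG on both strands, in 7.15% of 32851 promoter windows of this length. The E-box in Plin2 began 4 bases before the start site. The single ACGTG in Hilpda began 43 bases before it, and a window of Hilpda with an earlier start held none. The Degs2 window held no ACGTG and 5 copies of the GC box GGGCGG, which 35.7% of windows contained. One of the windows of Lipe held a CACGTG 155 bases before the start and the STAT-type letters TTCNNNGAA (8.3% of windows) 3 bases before it. The C/EBP palindrome TTGCGCAA (0.18%) and the PPAR repeat AGGTCANAGGTCA (0.04%) were in no window of the 6 genes. TATAAA (13.6%) was found in Lipa. A match is a description of these letters and shows no binding.

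Lipg (chromosome 18, minus strand), the gene for endothelial lipase, had the largest log2 difference between septic and control libraries of the 10 genes in each of the 4 populations. In control GMP it was at 0.0923, 0.328 and 0.0903 CPM, which rests on 2, 8 and 2 counts. Both reads of a pair were apparently counted, so these counts stand for fewer fragments. Control proNeu1 had 0.885, 0.304 and 2.00 CPM, proNeu2 had 3.05, 3.50 and 6.97 CPM, and preNeu had 15.6, 17.8 and 47.9 CPM. The level was thus higher at each later control stage, without overlap of library values except between GMP and proNeu1. In the 9 monocyte path libraries Lipg never exceeded 0.348 CPM and was at 0 counts in 4.

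In septic mice the same stages held far more Lipg. Septic GMP had 31.5, 62.7 and 68.1 CPM, proNeu1 had 79.9, 167 and 147 CPM, proNeu2 had 289, 464 and 432 CPM, and preNeu had 754, 731 and 736 CPM. No septic library overlapped a control library of its own population, and none of the 4 septic groups overlapped another. The fitted log2 difference between septic and control libraries was 8.34 ± 0.68 (SE) in GMP, then 6.85 ± 0.57, 6.47 ± 0.53 and 4.80 ± 0.48 at the 3 later stages, so it was largest where the control level was lowest. Septic GMP and control preNeu overlapped, at 54.1 ± 19.8 and 27.1 ± 18 CPM (SD, n = 3). Below, errors of CPM and of ratios are likewise SDs over 3 libraries and errors of log2 differences are SEs. The order of stages was the same in septic and control cells.

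Lpl (chromosome 8, 68880491-68907448, plus strand) had the opposite distribution. Its product is the lipase of capillary walls and is also made by macrophages. It was at 21.5, 22.1 and 28.0 CPM in cMoP, at 29.5, 60.1 and 50.2 CPM in TpMo and at 62.2, 71.1 and 48.3 CPM in Ly6ChiMo. Control GMP and the neutrophil stages held between 0.0923 and 5.47 CPM, below all 9 monocyte path libraries. cMoP exceeded GMP by 5.91 ± 1.06 on the log2 scale, and the values of TpMo and Ly6ChiMo overlapped. In septic cells Lpl stayed under 1.6 CPM up to proNeu2, and was at 0 counts in 2 libraries of proNeu1. Septic preNeu had 7.49, 6.12 and 4.63 CPM against 2.15, 2.21 and 3.26 CPM in control preNeu, without overlap, a log2 difference of 1.27 ± 0.88. The 10 macrophage markers summed to between 9.94 and 19.3 CPM in cMoP, 19.5 and 26.5 CPM in TpMo and 32.9 and 106 CPM in Ly6ChiMo. In control proNeu2 they summed to between 1020 and 1161 CPM. Whether macrophages contributed to the Lpl level was not tested.

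Lipa (chromosome 19, 34492318-34527474, minus strand) was also highest in monocytes. The cMoP libraries held 123, 124 and 110 CPM, TpMo held 149, 153 and 143 CPM and Ly6ChiMo held 271, 256 and 151 CPM. On the control neutrophil path it stood at 104 ± 1.45 CPM in proNeu1 and was lower in proNeu2 (43.9 ± 4.67) and preNeu (35.7 ± 3.77), with no overlap between proNeu1 and proNeu2. Septic cells showed a flatter course, from 86.1 ± 7.07 CPM in GMP to 74.0 ± 6.87, 65.2 ± 1.86 and 66.2 ± 4.67 CPM in proNeu1, proNeu2 and preNeu. The septic libraries lay below the controls in proNeu1 and above them in proNeu2 and preNeu, in each case without overlap. The log2 differences from GMP to preNeu were 0.08, -0.43, 0.59 and 0.83, each with an SE of 0.16.

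The intracellular lipases changed over narrower ranges. Lipe (chromosome 7, 25379527-25398710, minus strand) ran from 18.5 ± 5.37 CPM in control proNeu1 to 68.3 ± 6.49 CPM in Ly6ChiMo. Septic proNeu1 held 28.8, 28.5 and 28.0 CPM against 17.99, 13.4 and 24.1 CPM in the controls, and septic proNeu2 held 48.6, 50.1 and 40.1 CPM against 25.8, 23.5 and 29.9 CPM. Septic libraries lay above control ones without overlap in proNeu1, proNeu2 and preNeu, with log2 differences of 0.67 ± 0.19, 0.83 ± 0.18 and 0.42 ± 0.18. In GMP they overlapped. Exons of Lipe share 918 bases, 15.6% of its exon length, with 4732471J01Rik on the opposite strand, which did not exceed 3.61 CPM in any library.

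Pnpla2 (chromosome 7, 141455198-141460743, plus strand), the gene for the lipase that takes the first fatty acid from stored triglyceride, was highest in septic GMP. It stood there at 94.9, 117 and 105 CPM, against 49.7, 54.7 and 61.4 CPM in control GMP. Septic libraries lay above controls without overlap in GMP, proNeu1 and proNeu2, by 1.06 ± 0.21, 0.73 ± 0.21 and 1.12 ± 0.21 on the log2 scale. In preNeu the values overlapped (57.7 ± 7.01 against 43.4 ± 13.6 CPM). On the monocyte path it was lower in TpMo (43.5 ± 6.93 CPM) than in cMoP (74.8 ± 2.98) or Ly6ChiMo (77.4 ± 14.9), without overlap on either side.

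**Figure D1:**
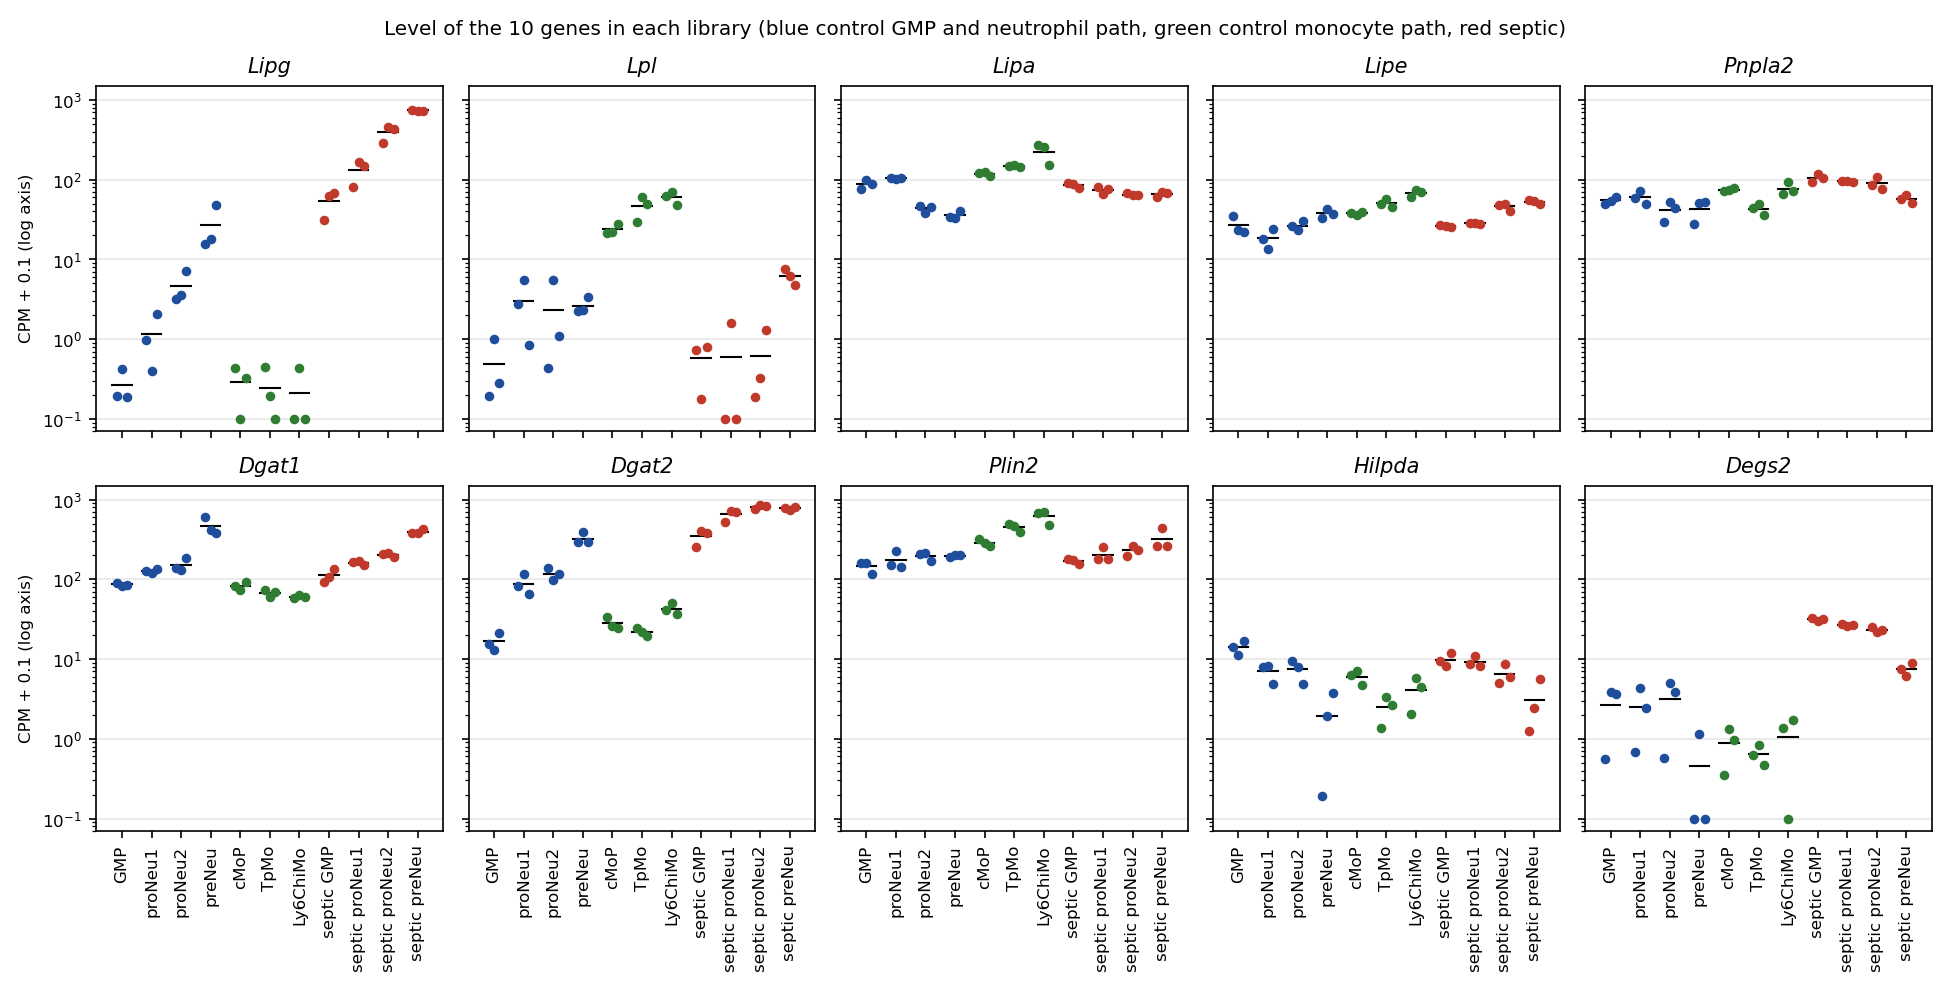
CPM of each gene in each of the 33 libraries, plotted as CPM + 0.1 on a log axis by group; points are libraries and black bars group means. Lipg, Dgat2 and Degs2 are higher in the red septic groups, and Lpl, Lipa and Plin2 are highest in the green monocyte groups.

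Dgat1 and Dgat2 encode unrelated enzymes for the same reaction, and both were higher in control preNeu than in control GMP, but their sepsis differences were of unlike size. Dgat1 (chromosome 15, 76502015-76511953, minus strand) was at 90.9, 83.2 and 85.7 CPM in control GMP and at 606, 411 and 384 CPM in control preNeu. Septic preNeu overlapped control preNeu (396 ± 26.3 against 467 ± 121 CPM). In the 3 earlier populations the septic libraries lay just above the controls without overlap, by 0.50 ± 0.16, 0.39 ± 0.16 and 0.44 ± 0.16 on the log2 scale, and in preNeu the difference was -0.32 ± 0.16. On the monocyte path the mean did not exceed 82.4 CPM.

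Dgat2 (chromosome 7, 99153658-99182719, minus strand) showed far larger differences. Control GMP held 15.2, 13.1 and 21.2 CPM and septic GMP 257, 405 and 376 CPM. Control proNeu1 held 82.9, 118 and 65.1 CPM and septic proNeu1 523, 727 and 706 CPM. Control proNeu2 held 140, 97.1 and 116 CPM and septic proNeu2 757, 846 and 820 CPM. Every septic library of these stages, as of preNeu (778, 744 and 798 CPM against 290, 388 and 296 CPM), lay above every control library of its population. The log2 differences were 4.51 ± 0.24, 2.94 ± 0.22, 2.80 ± 0.22 and 1.18 ± 0.21 from GMP to preNeu. Septic GMP and control preNeu overlapped, and septic proNeu2 and septic preNeu overlapped, at the top of the range. Monocyte path libraries stayed between 19.6 and 50.7 CPM.

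Per kilobase of exon, which allows genes to be compared, Dgat1 was the more abundant of the pair in all 21 control libraries and Dgat2 in all 12 septic libraries. The ratio of Dgat2 to Dgat1 was 0.189 ± 0.0491 in control GMP and between 0.324 and 0.779 on average in the other control groups. It was 3.08 ± 0.570 in septic GMP, 4.01 ± 0.770 in septic proNeu1, 3.93 ± 0.344 in septic proNeu2 and 1.94 ± 0.0961 in septic preNeu. The lowest septic library, at 1.86, was above the highest control library, at 0.988. Dgat2 ranked first of the 10 genes per kilobase in all 4 septic groups, where control GMP, proNeu1, proNeu2 and the 3 monocyte groups had Plin2 first and control preNeu had Dgat1 first. Lipg ranked second in septic proNeu2 (104 ± 24.6 CPM per kilobase) and septic preNeu (195 ± 3.15).

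**Figure D2:**
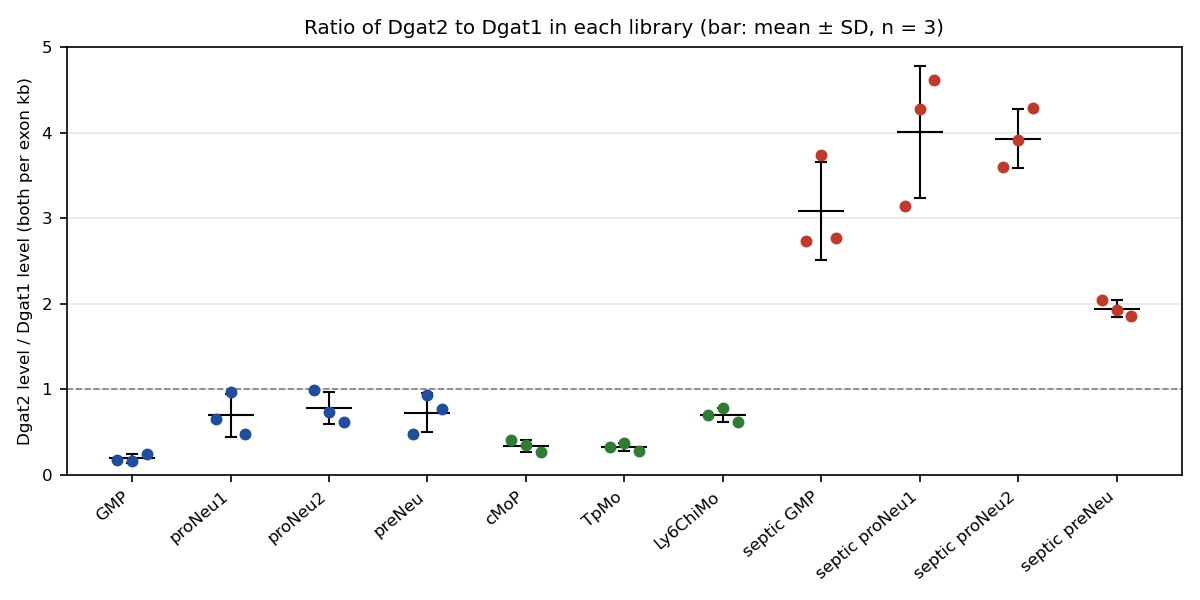
Ratio of Dgat2 to Dgat1, both per kilobase of exon, in each library by group (points), with the group mean ± SD (n = 3). All control libraries lie below the dashed line at 1 and all septic libraries at 1.86 or above.

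Plin2 (chromosome 4, 86648386-86670060, minus strand), the droplet coat protein of most cell types, was abundant everywhere and highest in monocytes. It was at 318, 287 and 263 CPM in cMoP, 492, 472 and 393 CPM in TpMo and 671, 707 and 478 CPM in Ly6ChiMo. The log2 differences were 1.02 ± 0.21 for cMoP against GMP and 0.84 ± 0.20 for TpMo against cMoP. Control neutrophil stages had means between 146 and 198 CPM, with overlap at each step. Sepsis went with small differences, of 0.35 ± 0.20, 0.28 ± 0.20 and 0.24 ± 0.20 from GMP to proNeu2 with overlapping values. In preNeu, septic libraries held 260, 439 and 259 CPM against 188, 203 and 201 CPM, without overlap, a difference of 0.63 ± 0.20 that rests in part on the single library at 439 CPM: it was 0.34 in the lowest alternative.

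Hilpda (chromosome 6, 29272488-29275446, plus strand) encodes a droplet protein that inhibits ATGL. Control GMP had 14.0, 11.2 and 16.6 CPM, the highest group, and control preNeu had 0.0932, 1.85 and 3.63 CPM, the lowest. Values were lower in proNeu1 than in GMP and lower in preNeu than in proNeu2, in both cases without overlap. Septic and control libraries overlapped in all 4 populations, with log2 differences between -0.38 ± 0.59 in GMP and 0.68 ± 0.64 in preNeu.

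Degs2 (chromosome 12, 108678711-108702315, minus strand), a desaturase and hydroxylase that forms phytoceramide, did not exceed 4.90 CPM in any control library. Its levels were 0.462, 3.77 and 3.52 CPM in GMP, 0.590, 4.21 and 2.33 CPM in proNeu1 and 0.477, 4.90 and 3.73 CPM in proNeu2, and 2 of 3 preNeu libraries had no count. Septic GMP held 32.5, 30.2 and 32.2 CPM, proNeu1 27.1, 25.7 and 27.0 CPM, proNeu2 25.1, 21.7 and 23.2 CPM, and preNeu 7.33, 6.08 and 8.92 CPM. The septic values fell into a narrow band in each group and did not overlap the controls or each other. In contrast to Lipg, the level was lower at each later septic stage. The log2 differences were 3.73 ± 0.87, 3.46 ± 0.86, 2.96 ± 0.84 and 3.96 ± 0.96. Exons of Degs2 share 278 bases, 10.76% of its exon length, with Evl on the opposite strand. The mean of Evl was 4.06 CPM in control and 1.89 CPM in septic GMP, and did not exceed 2.44 CPM in any septic group, which is below the Degs2 level in all 4.

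Across the list, 3 genes (Lipg, Dgat2 and Degs2) lay above control without overlap in all 4 populations and none lay below. Of all genes tested, 3.75% lay above and 2.47% below in all 4. Within single populations, septic and control libraries did not overlap for 5 of the 10 genes in GMP (37.7% of all genes tested), 7 in proNeu1 (33.3%), 7 in proNeu2 (33.8%) and 7 in preNeu (26.3%). The number past an adjusted p of 0.05 in edgeR's quasi-likelihood fit over all genes, each of them higher in sepsis, was 5 in GMP, where 17.7% of all genes were called and 10.3% were called higher. It was 5 in proNeu1 (15.6% called, 8.3% higher), 6 in proNeu2 (17% and 9.45%) and 5 in preNeu (11.8% and 7.57%). For the mean of the 4 differences it was 8 (37.1% and 19.6%), with Lpl and Hilpda the remaining 2. Since the list was chosen with these contrasts known, the counts describe it and support nothing further. The term for a difference that varied between populations was past the threshold for 4 of the 10 (6.34% of all genes), namely Lipg, Dgat2, Dgat1 and Lipa, which is likewise a description.

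**Figure D3:**
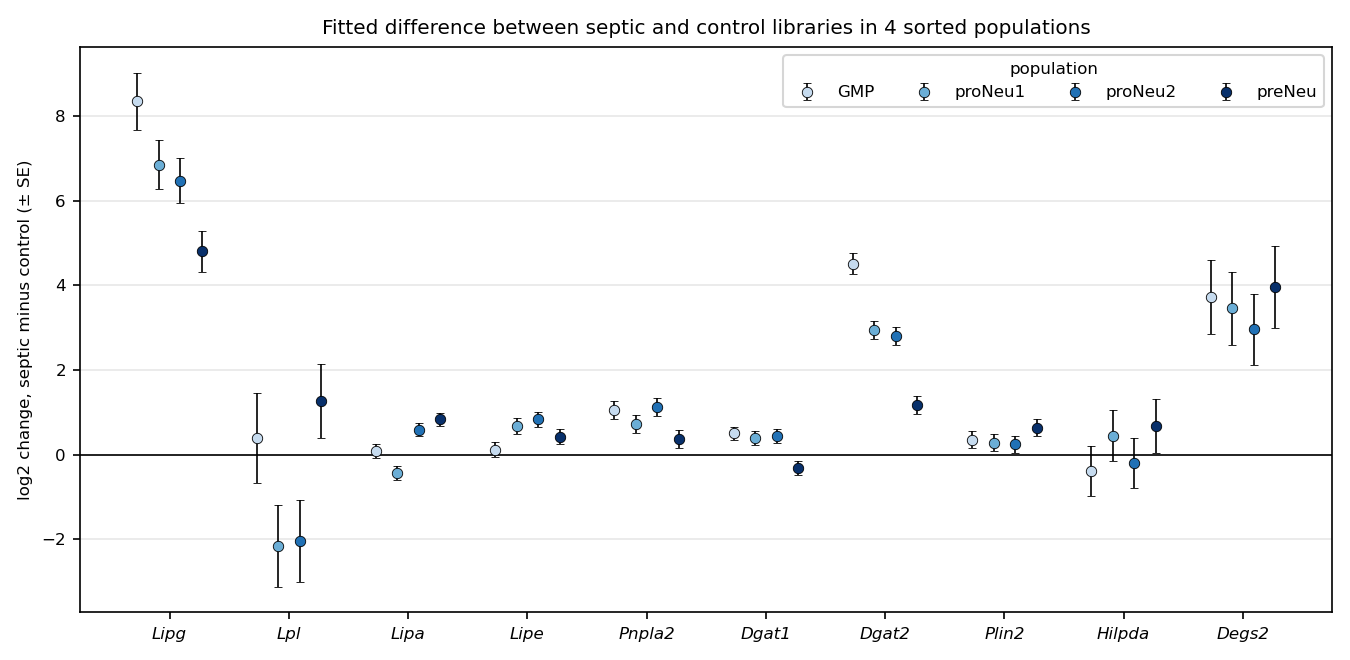
Fitted log2 difference, septic minus control, with its SE, for each gene in GMP, proNeu1, proNeu2 and preNeu (light to dark). Lipg falls from 8.34 in GMP to 4.80 in preNeu and Dgat2 from 4.51 to 1.18, while Degs2 lies between 2.96 and 3.96.

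Along the control paths, the genes past the same threshold were 3 at the step from GMP to proNeu1 (6.04% of all genes), all higher and including Dgat1 and Dgat2, 2 from proNeu1 to proNeu2 (3.05%; Lipg higher and Lipa lower) and 6 from proNeu2 to preNeu (27.8%). At the last of these Lipg, Dgat1, Dgat2 and Lipe were higher and Hilpda and Degs2 lower. On the monocyte path 5 were higher in cMoP than in GMP (17.2%), 3 higher and 1 lower in TpMo than in cMoP (18.1%), and 3 higher in Ly6ChiMo than in TpMo (20.9%). Leaving out single libraries moved these counts to between 1 and 3 at proNeu2, 2 and 4 at cMoP and 1 and 3 at TpMo.

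Other genes of the same pathways were counted from 9 lists, with the 10 genes left out. These lists, too, were chosen with earlier results of these data known. Their counts and shares, and the adjusted p-values of genes named from them, are therefore descriptions and support nothing further. Of 183 listed genes, 181 were in the table and 158 were tested. On the mean sepsis effect 58 were higher and 30 lower, 55.7% of those tested against 37.1% of all genes, with a median log2 difference of 0.16 against 0 over all genes. In all 4 populations without overlap, 20 lay above control (12.7%, against 3.75% of all genes) and 3 below (1.9%, against 2.47%).

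Among the droplet proteins 5 of 15 rose and 2 fell. Plin3, a coat protein of nascent droplets, rose in every population, from 98.3 ± 8.58 to 242 ± 28.0 CPM in GMP and from 259 ± 23.9 to 420 ± 42.8 CPM in preNeu (edgeR adjusted p = 5.61e-09 and 0.000914). Plin5, G0s2 and, further down, Gpihbp1 were picked out after their values were seen. Plin5, which links droplets to mitochondria, was at 0 CPM in control proNeu2 and at 2.10 ± 0.940 CPM in septic proNeu2, while septic preNeu (9.97 ± 2.10 CPM) overlapped control preNeu (4.36 ± 2.82 CPM). Among lipases and cofactors 3 of 17 rose and 7 fell. Abhd5, the coactivator of ATGL, rose in GMP, proNeu1 and proNeu2 by 0.85 ± 0.18, 1.08 ± 0.18 and 1.14 ± 0.18 on the log2 scale (edgeR adjusted p = 0.000873, 8.15e-05 and 3.04e-05). G0s2, an inhibitor of ATGL, fell on the mean effect by 0.78 ± 0.21 (edgeR adjusted p = 0.004). Mgll, which cleaves monoglyceride, fell by 2.55 ± 0.38, and Ces1d, a carboxylesterase, fell by 5.34 ± 0.82 to a mean of 0.275 CPM (edgeR adjusted p = 4.85e-06 and 2.51e-05).

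Of the triglyceride synthesis genes 9 of 19 rose and 2 fell. Gpd1l, a glycerol phosphate dehydrogenase homologue, rose in GMP, proNeu1 and proNeu2 by 1.05 ± 0.15, 0.87 ± 0.15 and 1.11 ± 0.15. Mogat2, which forms diacylglycerol from monoglyceride, fell from 287 to 119 CPM in preNeu (edgeR adjusted p = 0.00413). Among lipid regulators 10 of 18 rose and 1 fell, with Srebf1, the main factor of fatty acid synthesis genes, higher by 1.31 ± 0.13, 1.07 ± 0.13, 1.49 ± 0.14 and 0.79 ± 0.13 from GMP to preNeu. Of the fatty acid oxidation genes 10 of 22 rose and 3 fell, led by Acadl, a long-chain acyl-CoA dehydrogenase, which rose from 32.5 to 165 CPM in proNeu2 (edgeR adjusted p = 1.2e-08). Hypoxia-inducible genes rose in 8 of 17 and fell in 1. The glucose transporter gene Slc2a1 rose by 2.03 ± 0.31 in GMP, while the demethylase gene Kdm3a fell in all 4 populations, by 0.89 ± 0.08 on the mean effect.

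The lipoprotein lipase partners and uptake genes had 3 of 17 higher and 3 lower. The receptor gene Lrp1 rose in all 4 populations, from 8.65 to 73.6 CPM in preNeu (edgeR adjusted p = 2.14e-07). Cd36 fell from 21.6 to 0.399 CPM in GMP (edgeR adjusted p = 0.00453). Basophil and mast cell markers were lower in septic libraries of all 4 populations, and their part in the Cd36 difference was not tested. Gpihbp1, which anchors Lpl to capillaries, was at a mean of 0.0359 CPM in cMoP and 0 in every other group. Of lysosomal sterol genes 3 of 10 rose and 3 fell. Of sphingolipid genes 7 of 23 rose and 8 fell. Degs1, the main dihydroceramide desaturase and the paralogue of Degs2, fell in septic proNeu1 from 57.7 to 23.4 CPM (edgeR adjusted p = 8.84e-05), where Degs2 was higher. It was at 57.8 CPM in control and 42.0 CPM in septic GMP. In proNeu2 (15.3 against 17.5 CPM) and preNeu (357 against 308 CPM) control and septic Degs1 values overlapped. Degs2 was higher in these populations as well. Sptlc1, a subunit of the enzyme that starts sphingolipid synthesis, was higher on the mean effect by 0.86 ± 0.11 (edgeR adjusted p = 1.74e-07).

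**Figure D4:**
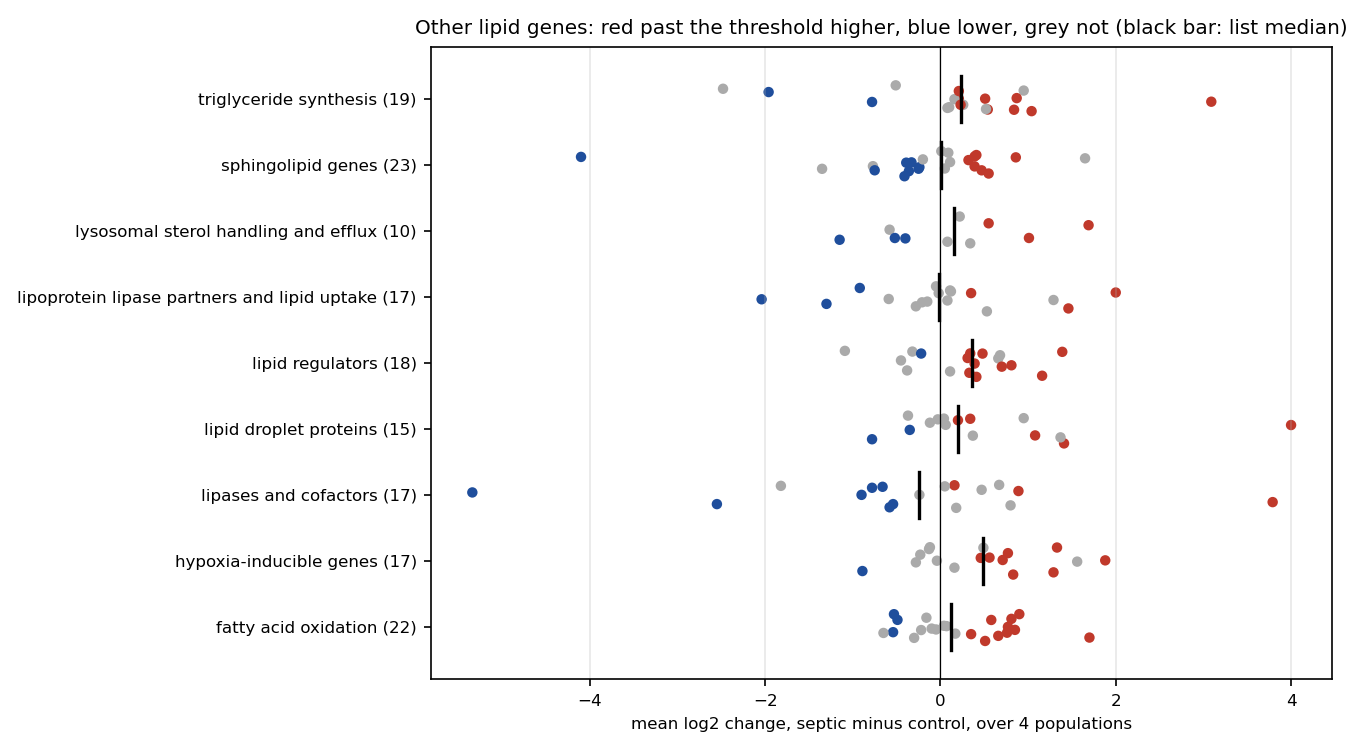
Mean log2 difference between septic and control libraries over 4 populations for the 158 other lipid genes tested, by list with its number of genes; red points were higher and blue points lower at an adjusted p under 0.05, and black bars are list medians. The list medians lie between -0.24 (lipases and cofactors) and 0.49 (hypoxia-inducible genes).

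Along the control paths, 16 other lipid genes were past the threshold higher and 5 lower from GMP to proNeu1. This was 13.3% of those tested, against 6.04% of all genes. The counts were 3 and 4 from proNeu1 to proNeu2 (4.43% against 3.05%). From proNeu2 to preNeu they were 34 and 29 (39.9% against 27.8%). At preNeu, where Dgat1 and Dgat2 were higher, Agpat2 (an earlier acyltransferase of the pathway) rose by 1.54 ± 0.24 and Acsl1 (which activates fatty acids) by 1.55 ± 0.14. Degs1 rose there from 15.3 to 357 CPM (edgeR adjusted p = 2.45e-14), and Degs2 was lower. Lmf1, a chaperone of lipases such as Lpl and Lipg, fell from 33.5 to 4.86 CPM at that step (edgeR adjusted p = 2.93e-08). Its homologue Lmf2 rose from 57.4 to 215 CPM (edgeR adjusted p = 6.91e-09). On the monocyte path the counts were 32 and 18 at cMoP (31.6% against 17.2%) and 35 and 18 at TpMo (33.5% against 18.1%). At Ly6ChiMo they were 19 and 22 (25.9% against 20.9%). All these counts describe lists that were chosen with earlier results known. Alongside Plin2, the scavenger receptor gene Msr1 rose from 1.68 to 57.0 CPM at TpMo, and Angptl4, which inhibits Lpl, fell from 24.2 to 3.33 CPM. Lpl itself did not pass the threshold at this step, with a log2 difference of 1.16 ± 0.82, though its library values did not overlap. Apoe rose from 44.9 to 1237 CPM at Ly6ChiMo (edgeR adjusted p = 7.25e-10).

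The likeness of profiles was measured as Pearson's r between group means of log2(CPM + 1) over the 11 groups, among 8424 genes. It is a description only, over genes measured in the same libraries. The gene nearest to Lipg was Csrnp1 (r = 0.981), followed by Dgat2 (0.954) and Plin3 (0.950). For Dgat2 they were Neu1 (0.985), Plin3 (0.980) and Ubtd1 (0.973), and for Dgat1 they were Agtrap (0.986), Orm1 (0.978) and Tinagl1 (0.977). Degs2 was nearest to Dpp3 (0.961), Lpl to Wdr26 (0.977), Lipa to Ly9 (0.970), Lipe to Gabarapl2 (0.956), Pnpla2 to Supt5 (0.930), Plin2 to Atrnl1 (0.978) and Hilpda to Aen (0.976). Plin3 was thus among the 3 nearest genes of both Lipg and Dgat2. With a pseudocount of 0.25 the nearest gene was Hal for Lpl (0.965), Orm1 for Dgat1 (0.989) and Hacd3 for Hilpda (0.980), and it was unchanged for the other 7 genes.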

How the data were processed

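RNA from sorted cells was made into SMART-seq2 libraries from 2 ng of total RNA, per the labels' protocols. The authors deposited 1 table of counts per gene for 33 libraries, made with STAR and featureCounts on GRCm38 per the submitters' processing notes; the versions and strand setting are not given in the sources used here. The deposited table also gives the exon length of each gene in bases. Of the counts between 1 and 10, 76.2% were even, so both reads of a pair were apparently counted. Symbols were assigned to 54723 of 54752 features.

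CPM is a count scaled to a library total of 1000000. Counts were tested with edgeR 4.0.16 in R 4.3.3 (TMM factors, filterByExpr, robust quasi-likelihood fit of all 33 libraries and 11 groups), with Benjamini-Hochberg adjustment over 18198 genes and a threshold of 0.05 in 12 comparisons. The SE is the log2 difference divided by the root of F. The script was tested on simulated data. DESeq2 1.42.0 was an alternative. Totals ran from 5517734 to 39977745 counts, and low values rest on few counts. The p-values rest on the spread between libraries within groups, estimated over all 11 groups together and moderated across genes.

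The 10 genes and the 9 lists were chosen with earlier results of these data known. Other lipid genes named were, per comparison and list, up to 3 called genes with the largest rise and up to 3 with the largest fall, provided the group with more of the transcript averaged at least 5 CPM; exceptions are marked.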

Additional observations from a re-analysis of the deposited data

Results flagged for a closer look

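Lipa differed between septic and control libraries in opposite directions in different populations. Every septic proNeu1 library lay below every control proNeu1 library (log2 difference -0.43), while every septic library of proNeu2 and of preNeu lay above the controls (0.59 and 0.83). The gene was chosen with these levels known, so this is a description, and the difference between the populations was not tested independently of that choice.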

How the results depend on the processing

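Lipg and Dgat2 stayed past the threshold in the 4 sepsis comparisons under every alternative run, and Degs2 did except in proNeu2 without control proNeu2 replicate 1. No value of a called gene reversed. With DESeq2, 1102 genes and 15 other lipid genes were called from proNeu1 to proNeu2, 5 of the 10 genes at Ly6ChiMo, and 2128 genes and 35 other lipid genes in the interaction. With DESeq2's size factors in edgeR (RLE), 3 of the 10 genes passed at cMoP and 5 at Ly6ChiMo. With no filter on low counts, 1 passed at proNeu2, 3 at cMoP and 2 in the interaction. Without the 5 shallowest libraries, 1 passed at proNeu2, 3 at cMoP and 3 in septic proNeu1, where 1745 genes were called, and 13 other lipid genes passed the interaction. With only the libraries compared, 353 genes and 1 of the 10 were called at proNeu2, and 1219 genes in septic preNeu.

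Leaving out 1 library at a time, genes called ranged from 711 to 907 at proNeu1 (lowest without proNeu1 replicate 3), 226 to 446 at proNeu2, 1880 to 2266 in septic proNeu1 (lowest without septic replicate 3), 2060 to 2694 in septic proNeu2 (lowest without control replicate 2), 1226 to 2646 in septic preNeu (lowest without control replicate 1) and 734 to 1403 in the interaction (lowest without preNeu replicate 2). Of the 10 genes, 1 to 3 passed at proNeu2, 2 to 4 at cMoP, 1 to 3 at TpMo, 3 to 5 in septic proNeu1 (3 without control proNeu1 replicate 1) and 2 to 4 in the interaction. Other lipid genes ranged from 4 to 7 at proNeu2 and 10 to 23 in the interaction. The cause of these shifts was not tested. The calls lost under 4 or more of the alternatives were Lipg at proNeu1 and proNeu2, Lipa and Lipe at cMoP, Lipa, Lipe and Pnpla2 at TpMo, Hilpda and Degs2 at preNeu, Dgat1 in septic GMP, Lipe and Pnpla2 in septic proNeu1, and Plin2 in septic preNeu. Low counts limit Lipg, Lpl and Degs2 in controls. No paired analysis was possible because the labels give the libraries no shared replicate numbers. They also do not say whether several populations were sorted from the same mice. The fit treats all libraries as independent, so SEs and p-values of the mean sepsis effect may be too small if mice were shared.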
